A study of Mus musculus with 24 samples.

Results

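Wild-type use of V segments shared by the T cell receptor alpha chain (Tcra) and delta chain (Tcrd) was compared in 15 segments, the V row names that occur in the tables of both chains. They were chosen by name alone, out of 117 V rows in the Tcra tables, and make up all 15 V rows of the Tcrd tables. Of the 15, 5 are named as delta V segments (TRDV) and 10 carry an alpha and a delta name together (TRAV with DV). The libraries were made from total RNA of thymocytes of wild-type mice on a C57Bl/6 background, aged 4 to 12 weeks, in a series of 24 libraries that also covers Satb1 knockout mice and the beta and gamma chains. Each chain was amplified from 5′ RACE cDNA with a primer in its own constant region, and 3 libraries per chain were used here. No treatment, Cre or transgene is given for the wild-type mice. Only V and J segments are measured in these tables, so the thymocyte label could not be checked against marker genes.

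The alpha and delta chains are encoded in one locus. The delta D, J and constant segments lie between the V segments and the alpha J segments, so that joining a V segment to an alpha J segment deletes the delta segments in between. A V segment joined to a delta J segment makes a delta chain, found on gamma-delta T cells, while the same V segment joined to an alpha J segment makes an alpha chain, found on alpha-beta T cells. Alpha rearrangement is known to begin at the 5′ end of the alpha J array and to move toward its 3′ end in successive rounds.

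The segments lie on chromosome 14 (GRCm38, GENCODE M21), and each has 2 exons, of which the second encodes nearly all of the V domain. All but TRDV5 lie on the plus strand, upstream of the delta J segment TRDJ1. The farthest is TRAV15D-1-DV6D-1, 1259 kb upstream, and the nearest is TRDV4, 47.6 kb upstream. TRDV5 lies on the minus strand downstream of TRDJ2, at 54148662 to 54149294, and is known to join by inversion. The last 30 bases of the second exon, which lead into the junction, are shown for 8 of the most used segments of either chain. Capitals mark the codon of the conserved cysteine that opens the junction.
TRDV5: agcgctacttattacTGTgcctcggggtat
TRDV1: actcaggcacttacctcTGTggagggaaag
TRAV21/DV12: cggctgtgtaccacTGTatcctgagagtag
TRAV15-2-DV6-2: ggacgtacttcTGCgctctctcggaactga
TRAV6-7-DV9: ctcggctgtgtactacTGTgctctgagtga
TRAV4-4-DV10: actcaggcacttacttcTGTgctgctgagg
TRAV16D-DV11: ggcagtatatttcTGTgctatgagagaggg
TRAV14D-3-DV8: actcagccacctacttcTGTgcagcaagtg
Between 10 and 16 bases follow the cysteine codon in the 8 segments shown. These bases are the germline end that can be trimmed and extended when the segment is joined.

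Other segments are close copies, and their shares depend on how reads were assigned. TRDV2-2, the leading delta segment, differs from TRDV2-1 at 7 of 299 aligned bases (97.7% identity), 4 of them in the last 100. Both second exons are shown whole, at chr14:53946362-53946660 for TRDV2-1 and chr14:53961304-53961602 for TRDV2-2, plus strand, with the differing bases in capitals.
TRDV2-1: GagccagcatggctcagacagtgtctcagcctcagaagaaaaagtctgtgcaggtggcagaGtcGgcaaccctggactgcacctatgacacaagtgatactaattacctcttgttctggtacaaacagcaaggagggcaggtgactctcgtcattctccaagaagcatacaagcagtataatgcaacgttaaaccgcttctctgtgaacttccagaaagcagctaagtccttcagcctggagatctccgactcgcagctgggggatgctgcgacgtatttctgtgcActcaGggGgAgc
TRDV2-2: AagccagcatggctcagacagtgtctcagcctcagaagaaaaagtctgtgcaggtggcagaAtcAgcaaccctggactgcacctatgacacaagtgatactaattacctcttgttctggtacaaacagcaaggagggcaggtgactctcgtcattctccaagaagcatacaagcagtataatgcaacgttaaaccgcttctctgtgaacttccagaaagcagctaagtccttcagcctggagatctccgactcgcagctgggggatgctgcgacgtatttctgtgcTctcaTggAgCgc
TRAV15-2-DV6-2 and TRAV15D-2-DV6D-2 differ at 6 of 300 aligned bases (98.0%) and at 0 of the last 100. The last 240 bases are shown for both, at chr14:53649755-53649994 and chr14:52957161-52957400, plus strand, again with the differing bases in capitals.
TRAV15-2-DV6-2: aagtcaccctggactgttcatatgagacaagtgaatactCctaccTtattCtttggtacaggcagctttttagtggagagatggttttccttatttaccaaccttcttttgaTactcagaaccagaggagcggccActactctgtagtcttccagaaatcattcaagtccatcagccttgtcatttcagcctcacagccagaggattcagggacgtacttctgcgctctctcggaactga
TRAV15D-2-DV6D-2: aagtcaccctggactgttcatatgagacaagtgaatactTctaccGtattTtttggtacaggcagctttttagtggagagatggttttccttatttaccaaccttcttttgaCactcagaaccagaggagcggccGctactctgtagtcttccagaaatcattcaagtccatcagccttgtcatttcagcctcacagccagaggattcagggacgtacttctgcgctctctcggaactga
A read confined to the last 100 bases would match both copies. TRAV15-1-DV6-1 and TRAV15D-1-DV6D-1 differ at 15 of 303 bases (95.0%). The Tcra tables also list TRAV15N-1 and TRAV15N-2, whose second exons are identical over 303 bases to TRAV15D-1-DV6D-1 and TRAV15D-2-DV6D-2.

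Each cell of a table is the percentage of assignments to one V–J pair in that library, and a V segment's share is its row summed over the J columns. Values are percent of library unless they are called rescaled, which means percent of the 15 shared segments of that library. The smallest value above 0 lay between 0.0157% and 0.0241% for Tcra and from 0.0306% to 0.0486% for Tcrd. Depth is not given, so no counting interval was computed. Pairs above 0 numbered between 1573 and 1978 in the Tcra tables, which hold 43 J columns, and 18 or 19 in the Tcrd tables, which hold 2. In RNA from whole thymocytes, fewer cells using a segment and less RNA per cell cannot be told apart. The chain also cannot be told apart from the primer that amplified it.

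The 15 segments held 14.8%, 14.9% and 20.1% of the 3 Tcra libraries (16.6% ± 3.02, SD, n = 3) and, since the Tcrd tables list no other V row, 100% of each Tcrd library. The delta V segments held 1.62%, 1.45% and 2.07% of the Tcra libraries and 72.6%, 72.4% and 77.2% of the Tcrd libraries, without overlap. The segments named for both chains held 13.2%, 13.5% and 18.0% of the Tcra libraries and 27.4%, 27.6% and 22.8% of the Tcrd libraries. Rescaled, the balance of the 2 classes turned over. The delta V segments took 10.3% ± 0.618 in Tcra and 74.1% ± 2.71 in Tcrd, and the segments named for both chains took 89.7% ± 0.618 and 25.9% ± 2.71. Each of these class differences reached p = 0.1 by exact permutation (two-sided), the lowest value possible with 3 libraries per chain, and an adjusted p of 0.1 over 7 single values. The rescaled classes sum to 100%, so their 2 differences are the same test with opposite signs. The 7 values also include the members' total, which is 100% in Tcrd by construction.

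Use within the shared set was also more even in Tcra. The leading segment took 24.0%, 28.0% and 27.1% of the shared set in Tcra (TRAV6-7-DV9) and 54.7%, 50.0% and 56.9% in Tcrd (TRDV2-2). Entropy was 3.06, 2.85 and 2.80 bits in Tcra and 2.27, 2.40 and 2.15 bits in Tcrd, with no overlap for either measure (exact permutation p = 0.1 and adjusted p = 0.1 for both). When each V–J pair above 0 was counted once, both differences changed sign: entropy was then 0.224 bits higher in Tcrd (exact permutation p = 0.2) and the leading share changed by -6.36 percentage points (exact permutation p = 0.1). With 18 or 19 pairs in a Tcrd table, that setting gives each pair a share of over 5% whatever its use.

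**Figure D1:**
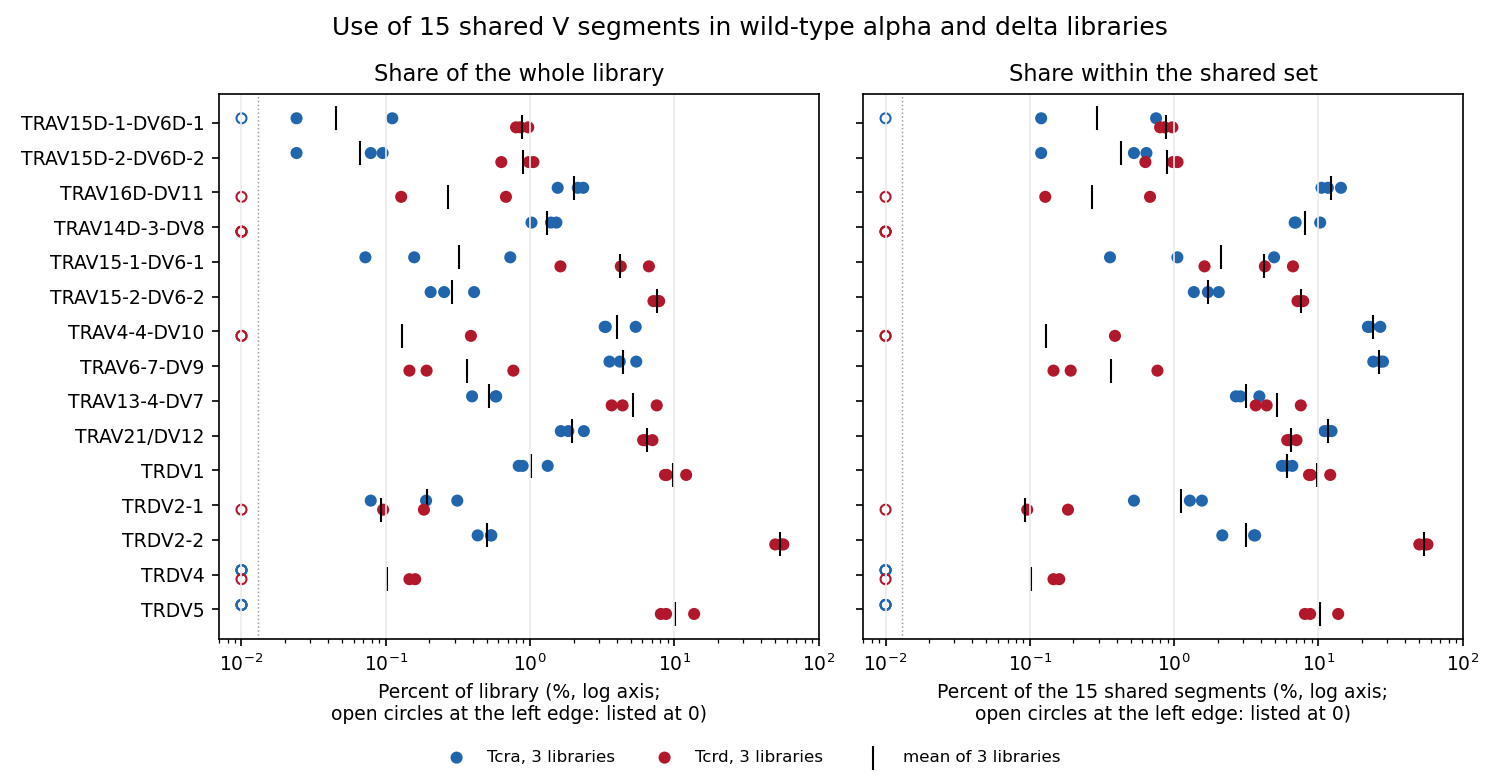
Share of each of the 15 segments in 3 Tcra libraries (blue) and 3 Tcrd libraries (red), as percent of library (left) and as percent of the shared set (right), on log axes with segments in order along the locus and black ticks for the means; open circles are listings at 0. TRDV2-2 and TRDV5 stand far to the right in Tcrd, while TRAV6-7-DV9, TRAV4-4-DV10, TRAV16D-DV11 and TRAV14D-3-DV8 stand to the right in Tcra on both scales.

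In the limma fit on log2(percent + 0.0486), 14 of the 15 segments were called at an adjusted p of 0.05. Of these 10 were higher in Tcrd and 4 higher in Tcra. The members hold 100% of each Tcrd library by construction and averaged 16.6% of the Tcra libraries. In percent of library their directions, folds and log2 differences are therefore shifted toward Tcrd before any segment is compared. Of all 93 V segments tested 98.9% were called, 10.8% higher in Tcrd and 88.2% higher in Tcra, because the 78 segments that the Tcrd tables do not list were taken as 0 there. The count of members called is thus near the background. Segments were tested where they averaged 0.1% or more in either chain. TRAV14D-3-DV8, TRAV15D-1-DV6D-1, TRAV15D-2-DV6D-2, TRDV2-1, TRDV4 and TRDV5 reached that bound only in the chain with their higher mean. The direction of the 78 was set by their absence from the Tcrd tables, so neither it nor the medians over all V segments tested can be read against the members. The median log2 difference, Tcrd minus Tcra, was 3.06 over the members and -3.38 over all V segments tested. In the fit of rescaled values 11 of 15 were called, 5 higher in Tcrd and 6 higher in Tcra, against 95.7% of the 93 tested (5.38% and 90.3%). There the median was 0.68 over the members and -4.59 over all V segments tested. Groups did not overlap for 13 members in percent of library (9 higher in Tcrd, 4 in Tcra) and for 11 rescaled (5 and 6), against 97.8% of all 93 in percent of library (9.68% higher in Tcrd, 88.2% in Tcra) and 95.7% rescaled (5.38% and 90.3%). This split depended on the scaling. Rescaled within the members other than TRDV2-2, or with log2 values centred over the members, 14 were called, 9 higher in Tcrd and 5 higher in Tcra, against 98.9% of all 93 in both settings (9.68% higher in Tcrd, 89.2% higher in Tcra).

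Among the delta V segments, TRDV2-2 (53960944 to 53961602) was the leading segment of the Tcrd libraries. It held 54.7%, 50.0% and 56.9% of the Tcrd libraries and 0.539%, 0.535% and 0.433% of the Tcra libraries. Its place among the shared segments was first in Tcrd and 8 in Tcra, and the mean was 107-fold higher in Tcrd. The log2 difference was 6.62 ± 0.157 (SE) in percent of library (limma adjusted p = 1.8e-07) and 4.09 ± 0.256 rescaled (adjusted p = 2.3e-06). Its near-copy TRDV2-1 (53946073 to 53946660) was rare in both chains, at 0.190%, 0.0787% and 0.313% in Tcra and 0.0959%, 0% and 0.184% in Tcrd. The 2 groups of TRDV2-1 overlapped and were not called in percent of library (adjusted p = 0.206). Rescaled, TRDV2-1 took 1.12% ± 0.534 in Tcra and 0.0932% ± 0.0919 in Tcrd and was called higher in Tcra (log2 difference -2.53, adjusted p = 0.00128). It passed the filter of 0.1% of the library only through its Tcra mean of 0.194%, so this call is not taken as support.

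TRDV5 and TRDV4 were listed above 0 only in Tcrd libraries. TRDV5 held 8.76%, 13.7% and 8.05% of the Tcrd libraries, the second place in that chain, and was listed at 0 in all 3 Tcra libraries. Both fits called it higher in Tcrd. It passed the filter of 0.1% only through its Tcrd mean of 10.2%, so these calls are not taken as support. Its annotated span overlaps the 3′ end of the delta constant segment (54142851 to 54148868), and it lies 7.99 kb upstream of TRAJ58, the first listed alpha J segment, and the tables pair it with no alpha J segment. TRDV4, known for its use by fetal gamma-delta cells that settle in the skin, held 0.160%, 0.146% and 0% of the Tcrd libraries. It overlapped with the Tcra libraries at 0. TRDV4 passed the filter of 0.1% only through its Tcrd mean of 0.102%, so its call is not taken as support. The call in percent of library (limma adjusted p = 0.0492) was lost in 9 of 12 alternatives, among them leaving out each of the Tcra libraries. Without Tcrd replicate 1 or 2 it fell below the filter and was not tested. Rescaled it was not called (limma adjusted p = 0.0611). It became called in 4 of 14 rescaled alternatives (lowest limma adjusted p = 0.00284), which are not taken as support either.

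TRDV1 (53881612 to 53882217) was used in both chains with means of 1% or more. It held 0.887%, 0.834% and 1.32% in Tcra and 8.85%, 8.60% and 12.1% in Tcrd, places 6 and 3. The mean was 9.69-fold higher in Tcrd (log2 difference 3.23 ± 0.241, limma adjusted p = 1.3e-05). Rescaled, the 2 chains lay much closer, at 6.05% ± 0.506 and 9.84% ± 1.93, still without overlap. The rescaled difference of 0.68 ± 0.218 was called (adjusted p = 0.0187), but not without Tcrd replicate 1 (adjusted p = 0.0531) or Tcrd replicate 3 (adjusted p = 0.0770).

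Of the segments named for both chains, TRAV15-2-DV6-2 had the highest Tcrd mean. It held 0.254%, 0.204% and 0.409% in Tcra and 7.16%, 7.63% and 7.84% in Tcrd. TRAV15 segments with a DV6 name are known from NKT-like gamma-delta cells. The mean of TRAV15-2-DV6-2 was 26.1-fold higher in Tcrd (log2 difference 4.54 ± 0.243, limma adjusted p = 2.7e-06), and rescaled the difference was 2.08 ± 0.214 (adjusted p = 3.8e-05). TRAV15-1-DV6-1 varied more between libraries of one chain, with 0.729%, 0.157% and 0.0722% in Tcra and 4.25%, 6.66% and 1.62% in Tcrd. Its groups were apart in percent of library (log2 difference 3.76 ± 0.802, adjusted p = 0.00320) but overlapped rescaled, since Tcra replicate 1 reached 4.93% of the shared set. The rescaled difference of 1.40 was not called (adjusted p = 0.163). It was called without Tcra replicate 1 (2.31, adjusted p = 0.0395), when rescaled without TRDV2-2 (2.44, adjusted p = 0.0306), with centred values (1.99, adjusted p = 0.0192) and with a replicate block (adjusted p = 0.00138).

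The more distant TRAV15 copies were used less in both chains, in places 12 and 13 in Tcra and 8 and 9 in Tcrd. TRAV15D-2-DV6D-2 held 0.0951%, 0.0787% and 0.0241% in Tcra and 1.05%, 0.632% and 0.980% in Tcrd. TRAV15D-1-DV6D-1 held 0.111%, 0% and 0.0241% in Tcra and 0.799%, 0.972% and 0.857% in Tcrd. Both were called higher in Tcrd in percent of library. They passed the filter of 0.1% only through their Tcrd means, 0.889% for TRAV15D-2-DV6D-2 and 0.876% for TRAV15D-1-DV6D-1. Their calls on either scale are therefore not taken as support. Rescaled, TRAV15D-2-DV6D-2 was not called (log2 difference 1.01, adjusted p = 0.0664) but became called in 5 of 16 alternatives: with a replicate block (adjusted p = 0.0125), each pair counted once (0.0238), copies summed (6.4e-06), without TRDV2-2 in the divisor (0.00542) and centred (0.00402), at differences of up to 2.45. TRAV15D-1-DV6D-1 was called at an adjusted p of 0.0351, which rose to between 0.0561 and 0.147 without Tcra replicate 2, Tcra replicate 3 or any one of the Tcrd libraries.

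TRAV13-4-DV7 and TRAV21/DV12, the segments of this class nearest to TRDJ1, held middle places in both chains. TRAV13-4-DV7 held 0.396%, 0.582% and 0.578% in Tcra and 7.54%, 4.37% and 3.67% in Tcrd, a log2 difference of 3.16 ± 0.309 (limma adjusted p = 5.8e-05). Rescaled its groups overlapped and the difference of 0.65 was not called (adjusted p = 0.0800). It became called in 2 of 17 alternatives, with a lowest limma adjusted p of 0.00148. Over all 17 the rescaled difference ranged from 0.36 to 1.71. TRAV21/DV12 (53875984 to 53876752) held 1.63%, 1.84% and 2.36% in Tcra and 6.26%, 6.07% and 7.04% in Tcrd, places 4 and 5. With TRDV1, it was one of the 2 segments at 1% or more in both chains.

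The direction of TRAV21/DV12 depended on the scaling. In percent of library it was 3.32-fold higher in Tcrd (log2 difference 1.72 ± 0.186, limma adjusted p = 9.5e-05), while rescaled it was lower in Tcrd, at 11.7% ± 0.645 in Tcra and 6.46% ± 0.513 in Tcrd (log2 difference -0.85, adjusted p = 0.00299). Rescaled within the members other than TRDV2-2 the difference was 0.21 (adjusted p = 0.330), with copies of a segment summed it was -0.30 (adjusted p = 0.149) and with centred values -0.25 (adjusted p = 0.399).

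The remaining 4 segments named for both chains were the ones higher in Tcra on both scales. TRAV6-7-DV9 led the shared set in Tcra, with 3.55%, 4.18% and 5.44%, and held 0.192%, 0.146% and 0.765% in Tcrd. Its mean was 11.9-fold higher in Tcra (log2 difference -3.70 ± 0.548, limma adjusted p = 0.000491), and it took 26.3% ± 2.10 of the shared set in Tcra. TRAV4-4-DV10 followed with 3.34%, 3.29% and 5.39% in Tcra. In Tcrd it was listed at 0 in replicates 1 and 3 and at 0.389% in replicate 2, and was called (log2 difference -5.29 ± 0.872, adjusted p = 0.000860).

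TRAV16D-DV11 held 1.55%, 2.14% and 2.33% in Tcra and 0.128%, 0.680% and 0% in Tcrd. It was called in percent of library (log2 difference -3.46 ± 0.919, limma adjusted p = 0.00880), but not without Tcra replicate 2 (adjusted p = 0.0638) or Tcra replicate 3 (adjusted p = 0.0509), and was called rescaled at -5.40 ± 0.642 (adjusted p = 9.0e-05). TRAV14D-3-DV8 held 1.52%, 1.02% and 1.40% in Tcra and was listed at 0 in all 3 Tcrd libraries, the only member never listed above 0 in Tcrd. It was called higher in Tcra in both fits. It passed the filter of 0.1% only through its Tcra mean of 1.31%, so these calls are not taken as support. None of the 3 Tcra libraries overlapped with a Tcrd library for these 4 segments.

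Order of use differed between the chains while it was stable within each. Over the 15 segments, Spearman's rho of log2(rescaled + 0.1) lay between 0.959 and 0.984 for pairs of Tcra libraries and between 0.892 and 0.963 for pairs of Tcrd libraries. For the 9 pairs of a Tcra with a Tcrd library rho lay between -0.249 and -0.141, and for the means it was -0.152 (Pearson's r -0.0969). These correlations are across segments, which share libraries and sum to 100%, and describe these libraries. The 5 most used segments, in order of mean share, were TRAV6-7-DV9, TRAV4-4-DV10, TRAV16D-DV11, TRAV21/DV12 and TRAV14D-3-DV8 in Tcra. In Tcrd they were TRDV2-2, TRDV5, TRDV1, TRAV15-2-DV6-2 and TRAV21/DV12. TRAV21/DV12 was the only segment in both sets of 5. In Tcra the shared-set shares of TRAV6-7-DV9 (26.3% ± 2.10) and TRAV4-4-DV10 (23.8% ± 2.63) overlapped, as did those of TRAV16D-DV11 (12.1% ± 1.96) and TRAV21/DV12 (11.0% to 12.3%). In Tcrd TRDV2-2 stood clear of the second place, while TRDV5 (8.05% to 13.7%) and TRDV1 (8.60% to 12.1%) overlapped.

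**Figure D2:**
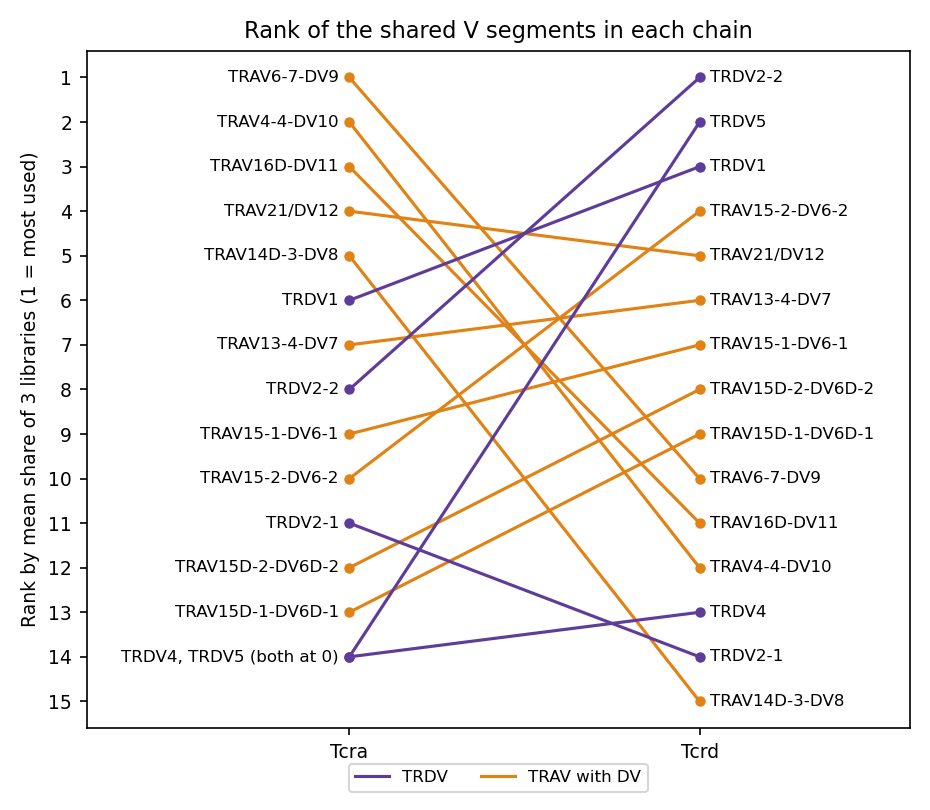
Rank of each segment by its mean share of 3 libraries in Tcra (left) and Tcrd (right), where 1 is the most used, with delta V segments in purple and segments named for both chains in orange. Many lines cross: TRAV6-7-DV9 goes from 1 to 10 and TRDV2-2 from 8 to 1. TRAV21/DV12, TRAV13-4-DV7 and TRDV4, which is tied with TRDV5 at 0 in Tcra, stay within 1 place.

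Use did not follow the distance to the delta J segments in a simple order. Among the 14 segments upstream of TRDJ1, rho between distance and the rescaled share was 0.0286 in Tcra and -0.169 in Tcrd, as a description of these 14 segments. TRDV2-2, 162 kb upstream, took the largest Tcrd share, whereas TRDV2-1 and TRDV4, at 176 kb and 47.6 kb, each took 0.102% or less. In Tcra the leading segments TRAV6-7-DV9 and TRAV4-4-DV10 lie 413 kb and 439 kb upstream, and TRAV16D-DV11 and TRAV14D-3-DV8, at 1075 kb and 1044 kb, also ranked in the first 5.

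**Figure D3:**
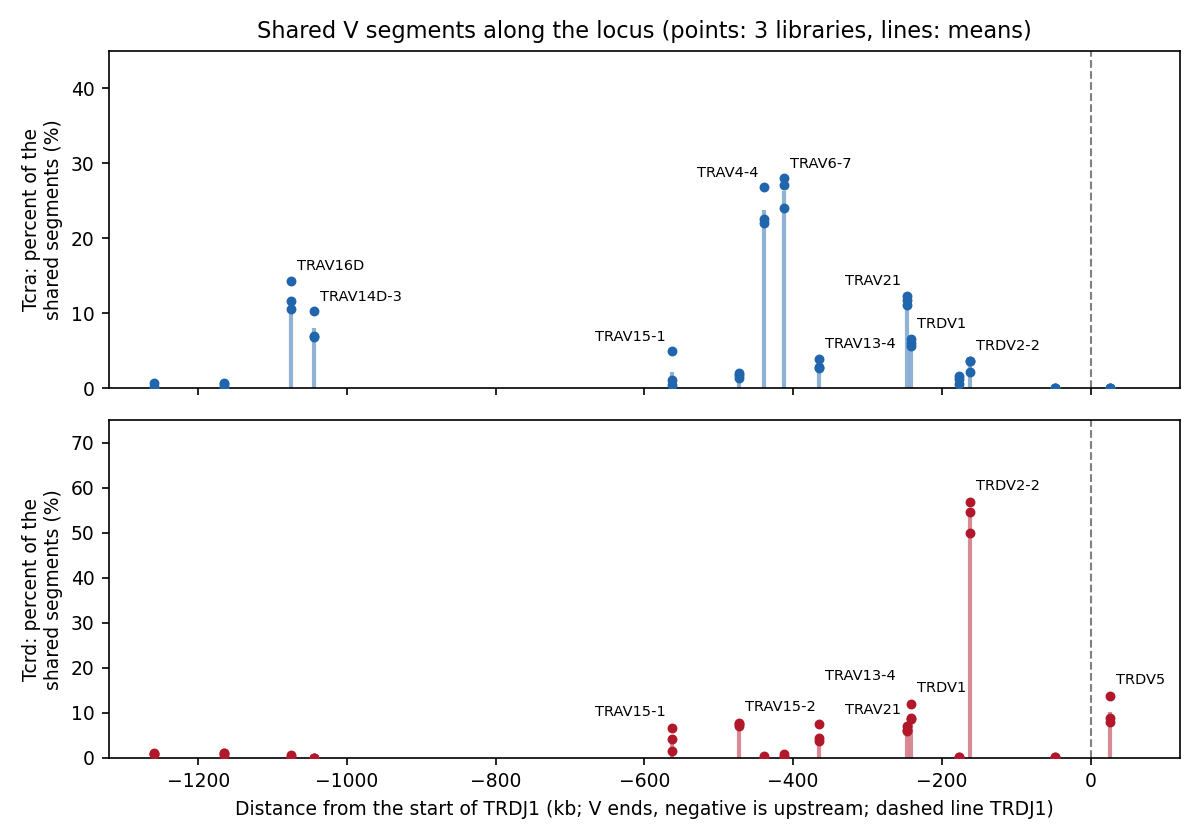
Percent of the shared set in Tcra (top) and Tcrd (bottom) against the distance from TRDJ1 in kb, with a point per library and a line for the mean. The Tcra shares are highest at 413 kb and 439 kb upstream, and the Tcrd share is highest for TRDV2-2 at 162 kb upstream.

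The alpha J partners of the shared segments were compared with those of the other V segments within the same Tcra libraries. Alpha J segments are numbered from TRAJ58 at the 5′ end to TRAJ2 at the 3′ end, so that a high mean number stands for 5′ partners. The mean number was 36.2, 34.4 and 35.9 for the shared segments and 28.7, 28.6 and 31.4 for the other V segments, higher for the shared segments in 3 of 3 libraries. The share joined to 5′ segments (TRAJ42 and above) was 44.2% ± 3.76 for the shared segments and 26.5% ± 1.75 for the others. No test was made of these values.

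The delta V segments had the most 5′ partners. Their mean number was 48.5, 46.6 and 51.4, with 85.3% ± 5.90 joined to 5′ alpha J segments, against 34.0 ± 0.799 and 39.5% ± 4.57 for the segments named for both chains. TRDV2-2 had 49.6, 48.1 and 53.4, and TRDV1 had 47.5, 46.9 and 50.3. Among the 50 V segments that averaged 0.5% or more in Tcra, these 2 had the first and second highest mean number, TRAV21/DV12 (46.1 ± 1.90) the fourth and TRAV13-4-DV7 (38.7 ± 0.766) the sixth. The third and the fifth were segments outside the shared set, TRAV19 (48.2) and TRAV17 (44.7), named here after their values were seen. High mean numbers were thus also found in V segments that are not shared. TRDV2-2 was joined most to TRAJ58, the first listed alpha J segment, with 27.4% of its assignments, then to TRAJ49 with 16.3% and TRAJ57 with 13.7%. TRDV1 and TRAV21/DV12 both had TRAJ56, TRAJ57 and TRAJ58 as their 3 leading partners.

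The segments that led the shared set in Tcra sat lower. TRAV4-4-DV10 had a mean number of 34.4 ± 2.38, TRAV6-7-DV9 of 31.1 ± 0.882, TRAV16D-DV11 of 28.8 ± 1.34 and TRAV14D-3-DV8 of 28.1 ± 4.22, places 11, 17, 29 and 34 of 50. The means of TRAV6-7-DV9 and TRAV16D-DV11 lay between 28.6 and 31.4, the lowest and highest library value of the pooled mean of all other V segments, that of TRAV14D-3-DV8 below and that of TRAV4-4-DV10 above. Members that averaged under 0.5% in Tcra are not ranked. The place of TRDV2-2, just inside that bound at 0.502%, rested on 11, 12 and 8 alpha J segments above 0.

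**Figure D4:**
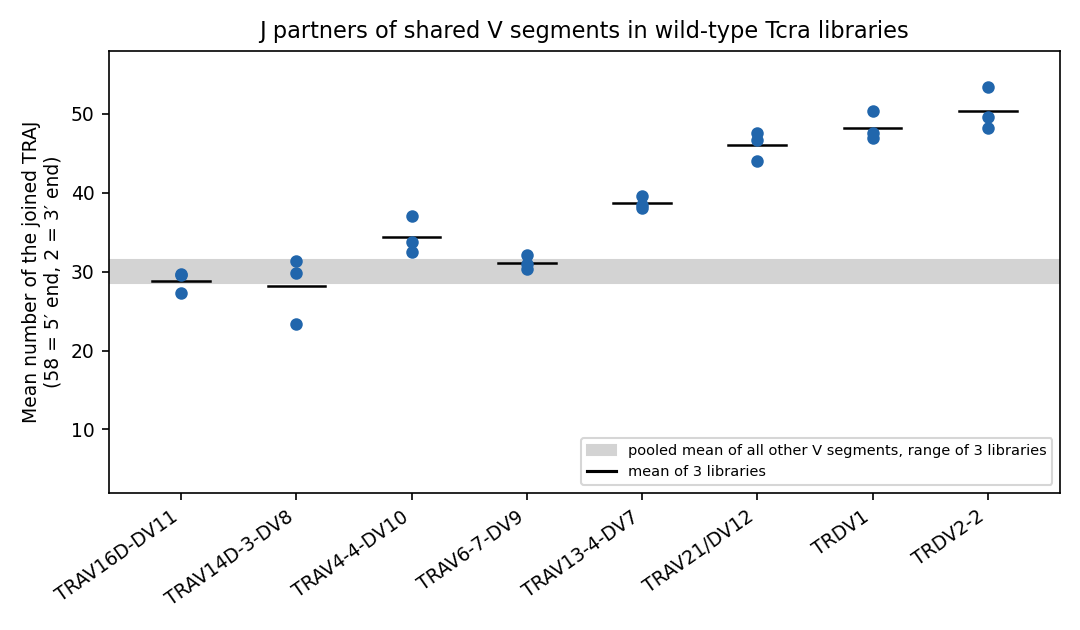
Mean number of the joined alpha J segment (58 at the 5′ end, 2 at the 3′ end) in 3 Tcra libraries for the 8 shared segments of at least 0.5%, in order along the locus, with black lines for means and a grey band from the lowest to the highest library value of the pooled mean of all other V segments. TRAV4-4-DV10, TRAV13-4-DV7, TRAV21/DV12, TRDV1 and TRDV2-2 lie above the band in all 3 libraries.

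In the Tcrd libraries nearly all assignments used TRDJ1, and TRDJ2 took 1.41%, 1.51% and 2.36%. TRDV2-2 was joined to TRDJ2 in 1.63%, 1.85% and 1.13% of its assignments. TRAV13-4-DV7 was joined to it in 2.97%, 2.22% and 4.17%, in each library above the library's own share. In Tcrd replicate 3 TRAV15-2-DV6-2 had 8.59% and TRDV1 6.09%, against 0% and at most 0.361% in the other libraries. The rarer TRAV15D-2-DV6D-2 had 6.25% there, and in Tcrd replicate 1 TRDV4 had 0.0639% of the library with TRDJ2 out of 0.160%, the highest proportion of any member. Both proportions rest on values near the floor. TRAV15D-2-DV6D-2 had 0.0612% of the library with TRDJ2, where the smallest value above 0 was 0.0306%. In Tcrd replicate 1 the smallest value was 0.0320%. TRDV5 had its lowest value in Tcrd replicate 3, at 0.380%, after 1.46% in replicate 1 and 2.84% in replicate 2.

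Several segments have close copies that the Tcra tables list apart and the Tcrd tables do not list. Among those higher in Tcrd in percent of library, these are TRAV13-4-DV7 and the TRAV15 segments. Beside TRAV13-4-DV7, the Tcra libraries held TRAV13N-4 at 0.275% ± 0.143 and TRAV13D-4 at 0.0346% ± 0.0362. With copies summed, its log2 difference in percent of library was 2.51 in place of 3.16. Segments higher in Tcra had such copies as well. Beside TRAV4-4-DV10, the Tcra libraries held TRAV4D-4 at 1.89% ± 0.540 and TRAV4N-4 at 0.658% ± 0.0503. Beside TRAV14D-3-DV8 they held TRAV14N-3 at 1.51% ± 0.264 and TRAV14-3 at 1.21% ± 0.488, and beside TRAV16D-DV11 they held TRAV16N at 1.69% ± 0.352, with TRAV16 listed at 0. The second exon of TRAV16D-DV11 differs from that of TRAV16N at 3 of 301 bases. With copies summed, the 15 rows became 13 groups that held 22.5%, 22.5% and 27.7% of the Tcra libraries. TRAV4-4 then led Tcra with 27.1% ± 0.800 of the shared set, followed by TRAV6-7 with 19.3% ± 1.87, TRAV14-3 with 16.6% ± 2.17 and TRAV16 with 15.2% ± 2.57. The difference in the total of segments named for both chains, 11.0 percentage points with copies apart, was 3.36 with copies summed (exact permutation p = 0.2). With copies summed, 9 of the 13 groups were called rescaled, 4 higher in Tcrd and 5 higher in Tcra, against 92.2% of the 51 groups tested (7.84% and 84.3%).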

How the data were processed

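The authors deposited one table per library with V segments as rows and J segments as columns. The deposited values are in percent, and each table sums to 100. Reads were processed with fastp, per the submitters' processing notes, which give no version. Aligner, segment caller and build: not given in the sources used here. Whether reads or clonotypes were counted is not given either. No counts are in the tables and none were inferred, so depth and counting error are unknown.

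From these values, the V rows of the 3 wild-type Tcra and 3 wild-type Tcrd tables were summed over J columns, as percent of library and rescaled to 100 over the members. V segments that averaged 0.1% or more in either chain were tested with limma 3.58.1 (R 4.3.3) on log2(value + pseudocount), without a replicate block. The pseudocount was the smallest value above 0 of the coarsest library (0.0486, or 0.120 rescaled). A segment that a table does not list was taken as 0. Adjusted p-values are Benjamini-Hochberg values over all 93 V segments tested, with calls at 0.05. The 78 segments that the Tcrd tables do not list were all called, which leaves little adjustment for members with high p-values. For TRDV4 in percent of library the limma p was 0.0487 before adjustment and 0.0492 after. The values of the 78 set to 0 in Tcrd also entered the shared variance. The test was also run on simulated data with equal spread for all segments and no segment fixed at 0. That run does not cover the 78 segments taken as 0 in Tcrd. Single values were compared with exact two-sided permutation tests over 20 arrangements. Replicates are not labelled as separate mice, so a p-value measures only the spread between libraries, which may be technical.

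Members that averaged 1% or more in either chain were named with every library's value, and all other members are accounted for. The members and lists were chosen with earlier results of these data known. Positions and exon sequences were read from GENCODE M21 (GRCm38), where 114 of 117 Tcra V rows and all 15 members matched by name. Alternatives were other pseudocounts and filters, leaving out each library, a replicate block, a variance trend, each V–J pair counted once, and summed copies. Rescaling without TRDV2-2, centred values, summed copies for single values, and a variance shared over the members alone were chosen after seeing the data. Biopython 1.88, scipy 1.17.1, pandas 2.3.3, numpy 2.4.6 and matplotlib 3.10.9 ran under Python 3.11.15. A planned total of members named TRAV alone could not be computed, because no member has such a name.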

Additional observations from a re-analysis of the deposited data

How the results depend on the processing

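Of 468 values of single members under the alternatives, 419 kept their direction and side of the threshold, 30 were no longer called, 16 became called and 3 changed sign. Counting each V–J pair above 0 once moved the most values: TRAV6-7-DV9 changed from -3.70 to 1.301 and TRDV2-1 from -0.92 to 1.59 in percent of library, 1 member in place of 4 was called higher in Tcra there, and rescaled 7 members were called, 3 of them higher in Tcra, against 93.2% of the 103 V segments tested and 83.8% of the 111 tested rescaled. In that setting the difference in entropy was 0.224 bits and in the leading share -6.36 percentage points. The mean alpha J number of the members was 33.0, their difference from the other V segments 3.05 in place of 5.93, their 5′ share 39.0% and the TRDJ2 share 32.7%. With at most 2 pairs per segment in a Tcrd table, this setting removes most of the differences in use by its construction. A filter of 1% left 40 V segments called in percent of library and 38 rescaled, and summed copies 49 and 47, since fewer segments were tested. The rescaled members called higher in Tcrd numbered 3 without Tcrd replicate 1, and 9 when rescaled without TRDV2-2 or centred, where TRAV21/DV12 stood at 0.21 and -0.25; beyond TRDV2-2 leaving the divisor in the former, the cause was not tested.

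Leaving out each library in turn, 12 to 14 members were called in percent of library (9 to 10 higher in Tcrd, 3 to 4 higher in Tcra, 87 to 92 of all V segments) and 9 to 12 rescaled (3 to 6 and 6 to 6, 87 to 90 of all). The difference in the members' total ranged from 82.5 to 85.1 percentage points, in delta V segments from 70.8 to 73.2, and in segments named for both chains from 10.1 to 12.6. Rescaled, these ranged from 62.2 to 64.6 and from -64.6 to -62.2, entropy from -0.695 to -0.551 bits and the leading share from 26.0 to 29.5. The mean alpha J number ranged from 35.2 to 36.0, its difference from the other V segments from 5.14 to 6.66, the 5′ share from 42.04% to 45.5% and the TRDJ2 share from 1.46% to 1.93%.

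With replicate number as a replicate block, 15 members were called in percent of library and 13 rescaled (7 higher in Tcrd, 6 higher in Tcra), against 93 and 91 of all 93 V segments tested. TRDV2-1 became called in percent of library (adjusted p = 0.0105), and TRDV1 was not called rescaled (adjusted p = 0.0700). Single values had an exact sign-flip permutation p of 0.25, the smallest that 3 pairs allow. Deviations of equally numbered libraries correlated at 0.249, 0.0816 and 0.396 over 12 members, so the pairing bound of 0.1 was missed for number 2, and the numbers were not taken as pairs. Tcra replicate 2 correlated better with Tcrd replicate 1 (0.126) than with its own number. With the variance shared over the members alone, 13 members were called in percent of library and 11 rescaled, against 97.8% and 95.7% of all 93.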
